A study of Sus scrofa domesticus with 4 samples.

Results

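Toll-like receptors are sensors of the innate immune system, and they were followed here in pig uterine muscle (myometrium) cultured with or without the neuropeptide orexin B. The set held 10 genes: the receptors TLR1, TLR2, TLR3, TLR4, TLR6, TLR7, TLR8 and TLR9, the adaptor MYD88 and the co-receptor LY96. Members were the probes whose RefSeq mRNA belongs to one of these pig genes, which gave 17 of the 43603 probes of the array. Of these 17 probes, 12 were bright enough to test, against 19879 in all, and they represented 6 of the 10 genes.

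Each array compared 2 cultures of myometrial slices from gilts (Large White x Polish Landrace, 7 to 8 months of age) on days 15 to 16 of gestation. After 2 h of preincubation in both groups, one culture received 10 nM orexin B for 24 h and the other was kept for the same time without treatment. The slices came from the middle of the uterine horns, and every gilt was pregnant, so the comparison has no nonpregnant animal. The labels give 4 gilts and 4 experiments for the 4 arrays, with cultures in duplicate. RNA of both cultures was hybridised together in the dyes Cy3 (green) and Cy5 (red); orexin B RNA was in Cy5 on arrays 1 and 3 and in Cy3 on arrays 2 and 4. The labels name whole explants, in which fewer cells of a type and less RNA per cell cannot be told apart. Of 13 smooth muscle markers listed, 9 had a RefSeq probe. All 9, among them the actin ACTA2 and the calponin CNN1, were bright enough to test, where 1979 of 3029 named genes were.

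Toll-like receptors recognise conserved molecules of microbes and of damaged cells. TLR1, TLR2, TLR4 and TLR6 sit at the cell surface, where TLR2 pairs with TLR1 or TLR6 to bind lipopeptides and TLR4 pairs with LY96 (MD-2) to bind lipopolysaccharide. TLR3, TLR7, TLR8 and TLR9 sit in endosomes and bind nucleic acids. Most of these receptors signal through MYD88 to the transcription factor NF-kB, whereas TLR3 signals through the adaptor TICAM1. Macrophages carry many of the receptors, and epithelial, stromal and muscle cells carry some.

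Log2 ratios set the orexin B culture against the untreated culture of the same array, so that 0 means no difference, and a mean is followed by its moderated standard error over 4 arrays. P-values came from limma's moderated test, two-sided, with Benjamini-Hochberg adjustment over all 19879 tested probes, and a probe was called at an adjusted p under 0.05. No probe was called (0 of 19879, 0%), and 1534 probes (7.72%) had an unadjusted p under 0.05. Between 48.7% and 54.3% of probes were well above background in the treated channel and between 37.6% and 58.2% in the untreated channel. Array 1 lay alone on its slide, and arrays 2, 3 and 4 shared another. Across probes, the ratios of the arrays correlated at r between -0.18 (arrays 2 and 3) and 0.36 (arrays 2 and 4). With 4 arrays, precision is limited by their number.

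None of the 12 tested probes of Toll-like receptors and LY96 was called, and none had an unadjusted p under 0.05, where 4.31% of all tested probes had one with a higher level and 3.41% with a lower level. Their adjusted p ran from 0.677 to 0.980. Means were above 0 for 6 probes and below 0 for 6, where 54.1% of all tested probes were above 0. Over the 8 receptor probes tested, the means ran from -0.25 for TLR1 to 0.23 for TLR3, and no 95% confidence interval went below -0.54 or above 0.58. These bounds hold for the main processing alone. With the scanner software's processed signals the receptor means reached -0.40 ± 0.19 for TLR1 and 0.46 ± 0.25 for probe 2 of TLR3. Taking 1 probe a gene, its brightest tested one, the median of the 6 genes was -0.01, against 0.02 over all 1979 named genes tested.

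**Figure D1:**
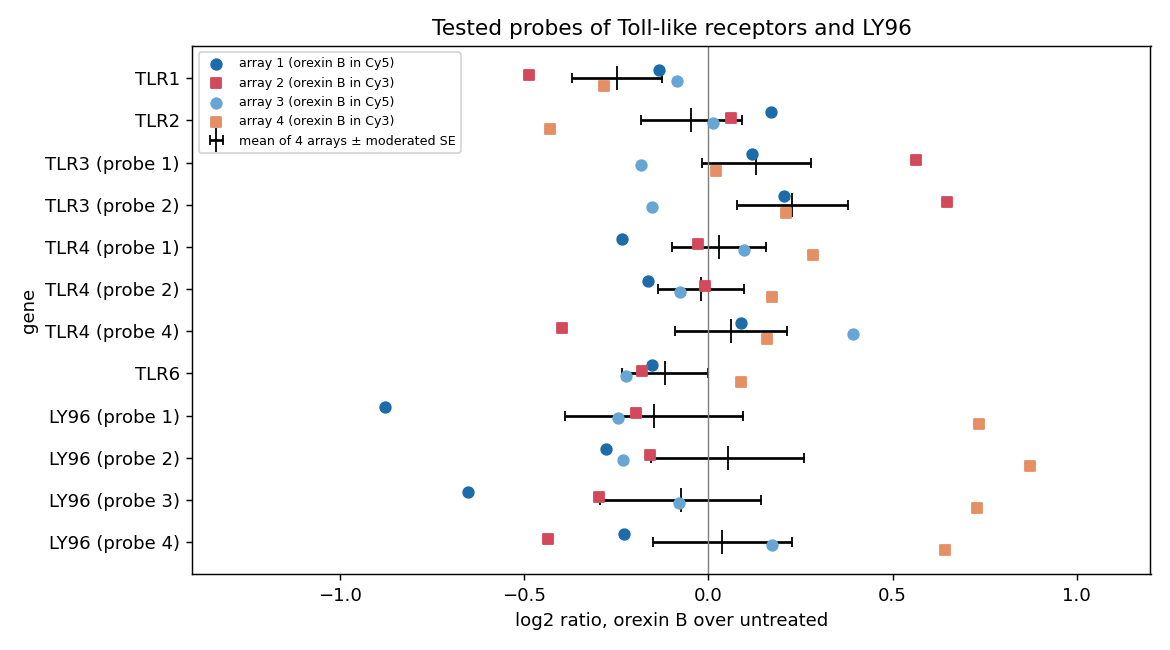
Log2 ratio of orexin B over untreated (horizontal axis) for the 12 tested probes of TLR1, TLR2, TLR3, TLR4, TLR6 and LY96. Coloured symbols are the 4 arrays (circles with orexin B in Cy5, squares with it in Cy3) and the black bars are the mean ± moderated standard error; the TLR1 points all lie below 0, and the array 4 points of LY96 all lie above the other arrays.

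TLR1, which pairs with TLR2 to bind triacylated bacterial lipopeptides, was the only member below 0 on all 4 arrays. Its log2 ratios on arrays 1 to 4 were -0.13, -0.49, -0.09 and -0.28. The mean was -0.25 ± 0.12, a level 1.19-fold lower with orexin B, with a 95% interval from -0.54 to 0.04 (unadjusted p = 0.0816, adjusted p = 0.677, limma). Across the array, 7.14% of probes with 4 values lay below 0 on all arrays, so 1 of 12 probes is near the background. In the separate channels the log2 intensity was 8.66, 8.85, 8.93 and 8.97 with orexin B and 8.80, 9.33, 9.02 and 9.25 without. The channels overlapped between arrays, and the treated value was the lower one within each array. With the scanner software's processed signals the mean was -0.40 (adjusted p = 0.629, limma).

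TLR6 and TLR2 complete the lipopeptide receptors. TLR6, which pairs with TLR2 to bind diacylated lipopeptides, had ratios of -0.15, -0.18, -0.22 and 0.09 on arrays 1 to 4. It was below 0 on 3 arrays and slightly above 0 on the fourth, with a mean of -0.12 ± 0.12 and an interval from -0.39 to 0.16 (adjusted p = 0.830, limma). Without replicate 4 it was -0.19. With the processed signals its mean was -0.33 (adjusted p = 0.689, limma). TLR1 and TLR6 are close paralogs that neighbour each other in the Sscrofa11.1 gene table, and how far their 2 probes tell them apart was not tested.

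TLR2, the shared partner of both pairs, had ratios of 0.17, 0.06, 0.01 and -0.43. Array 4 stood apart on the low side and the other arrays lay at or just above 0. The mean was -0.05 ± 0.14, with an interval from -0.37 to 0.28 (adjusted p = 0.951, limma), and it was 0.08 without replicate 4. The level of TLR2 also differed between arrays. Averaged over both channels, its log2 intensity was 9.68, 9.51, 10.16 and 9.48 on arrays 1 to 4, highest on array 3. The range of 0.68 between arrays is a difference between gilts, experiments or hybridisations, which cannot be told apart.

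TLR4, the lipopolysaccharide receptor, was represented by 4 probes, of which 3 were tested. Probe 1 had ratios of -0.24, -0.03, 0.10 and 0.29 on arrays 1 to 4, and probe 2 had -0.16, -0.01, -0.08 and 0.17. Probe 4 had 0.09, -0.40, 0.39 and 0.16. All 3 probes were above 0 on array 4 and below 0 on array 2, while on arrays 1 and 3 they differed in sign. Their means were 0.03 ± 0.13, -0.02 ± 0.12 and 0.06 ± 0.15 (adjusted p from 0.943 to 0.980, limma), and the widest interval ran from -0.30 to 0.42. Each of the 3 means changed sign when a single array was left out: probe 1 was -0.06 without replicate 4, probe 2 was 0.03 without replicate 1 and probe 4 was -0.05 without replicate 3. Probe 2 was also 0.20 with the processed signals (adjusted p = 0.840, limma).

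The level of TLR4 also differed between arrays. Averaged over both channels, the log2 intensity of probe 1 was 9.59, 9.47, 9.33 and 8.82 on arrays 1 to 4, and that of probe 4 was 9.38, 9.35, 9.21 and 8.66. Both were highest on array 1 and lowest on array 4. Probe 2 had 8.42, 8.73, 8.15 and 7.94, so that it was highest on array 2 and, like the others, lowest on array 4. The SD between arrays was 0.34 for each of the 3 probes, larger than any of their mean ratios. Probe 3 of TLR4 was well above background in Cy5 on 3 arrays and in Cy3 on none, and it was not tested.

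**Figure D2:**
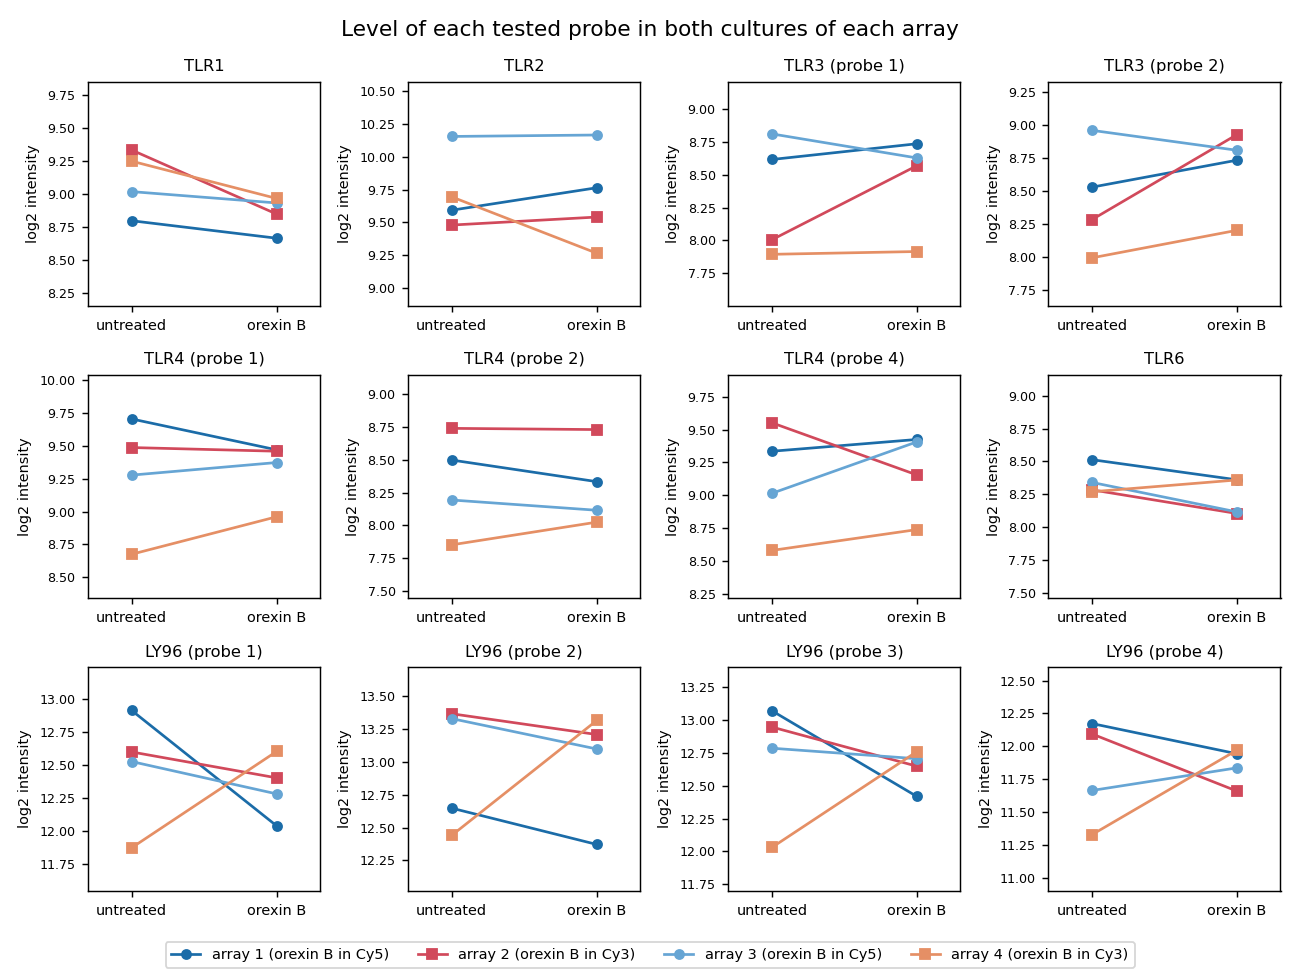
Log2 intensity (vertical axis, normalised within and between arrays) of each tested probe in the untreated and the orexin B culture of each array, joined by a line per array. For TLR3 and TLR4 the line of array 4 is the lowest, and for TLR2 the line of array 3 is the highest; for LY96 the line of array 4 rises from the lowest untreated value while most other lines slope down.

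TLR3, the endosomal receptor for double-stranded RNA, had the highest mean of the receptors. Its probe 2 had ratios of 0.21, 0.65, -0.15 and 0.21 on arrays 1 to 4, and probe 1 had 0.12, 0.56, -0.18 and 0.02. Both probes were highest on array 2 and below 0 on array 3, and on no array were they more than 0.19 apart. The mean was 0.23 ± 0.15 for probe 2, with an interval from -0.13 to 0.58 (unadjusted p = 0.175, adjusted p = 0.752, limma). For probe 1 it was 0.13 ± 0.15 (adjusted p = 0.857, limma), and -0.01 without replicate 2. Probe 2 was 0.09 without replicate 2, 0.35 without replicate 3 and 0.46 with the processed signals (adjusted p = 0.658, limma). The log2 intensity of probe 2 was 8.53, 8.28, 8.96 and 7.99 without orexin B and 8.73, 8.93, 8.81 and 8.20 with it. TLR3 was lowest on array 4 in both cultures, and the cultures overlapped between arrays.

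The genes with array profiles most like TLR3 were TAF13, PPP2R2A and TMX4. The likeness was the root-mean-square difference of the 4 log2 ratios, which was 0.07, 0.08 and 0.08 for these genes against a median of 0.49 over 1951 genes compared. TAF13 had 0.15, 0.63, -0.03 and 0.23 on arrays 1 to 4. With 4 arrays this is a description of these profiles alone.

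LY96, the secreted protein that binds lipopolysaccharide for TLR4, was well above background in both dyes on all arrays with each of its 4 probes, and all 4 were tested. On array 4 the ratios of its 4 probes ran from 0.64 to 0.87. On array 1 they ran from -0.88 to -0.23, on array 2 from -0.43 to -0.16 and on array 3 from -0.25 to 0.17. Array 4 was therefore above all other arrays for every probe, with no overlap, and arrays 1 and 2 were below 0 for every probe. The means were -0.15 ± 0.24, 0.05 ± 0.21, -0.08 ± 0.22 and 0.04 ± 0.19 for probes 1 to 4 (adjusted p from 0.903 to 0.974, limma), and the intervals together reached from -0.71 to 0.54. As orexin B over untreated the arrays went opposite ways, and the intervals are wide. A dye term fitted beside the treatment was -0.42, -0.31, -0.29 and -0.07 for probes 1 to 4 (adjusted p from 0.422 to 0.899, limma).

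On array 4 both channels of LY96 were at an extreme. For probe 1 of LY96 the log2 intensity without orexin B was 12.92, 12.60, 12.53 and 11.87 on arrays 1 to 4, and with orexin B it was 12.04, 12.40, 12.28 and 12.60. For all 4 probes the untreated culture of array 4 was the lowest of the 4 untreated ones, and its treated culture was the highest of the 4 treated ones. Across probes the SD of the untreated levels was between 0.39 and 0.47. The SD of the treated levels was between 0.14 and 0.43; no test of this difference was made. Leaving out array 4 moved the means of the 4 probes to -0.44, -0.22, -0.34 and -0.16, and leaving out array 1 moved them to 0.10, 0.16, 0.12 and 0.13.

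**Figure D3:**
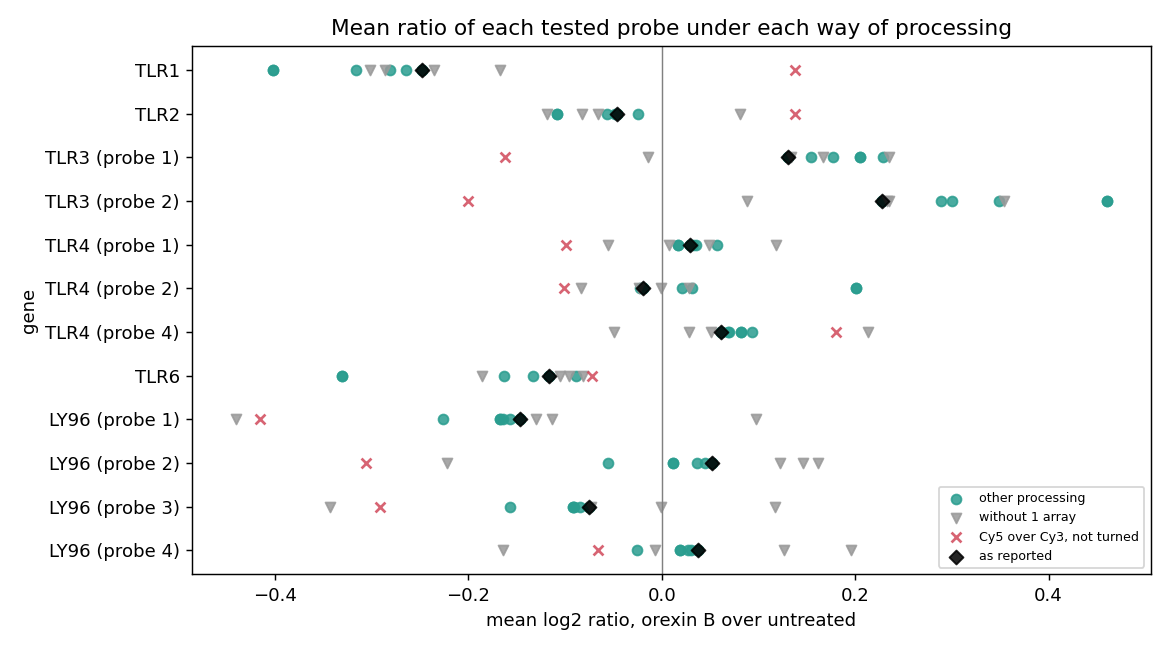
Mean log2 ratio (horizontal axis) of each of the 12 tested probes as reported (diamonds), under other processing (circles), without 1 array (triangles) and as Cy5 over Cy3 without turning by dye (crosses, which are not orexin B over untreated). TLR1 and TLR6 stay below 0 except for the cross of TLR1, while every TLR4 probe and every LY96 probe has triangles on both sides of 0.

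The ratios of LY96 were nearest to those of IMP3 (root-mean-square difference 0.06), AHCY (0.17) and TXNRD1 (0.20), against a median of 0.56 over 1951 genes. IMP3 had -0.29, -0.20, -0.12 and 0.83 on arrays 1 to 4, compared with -0.28, -0.16, -0.23 and 0.87 for the brightest probe of LY96, probe 2. The set was chosen by the values of these 4 arrays and carries no test.

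MYD88, the adaptor shared by most of the receptors, was at the limit of detection and its ratio was not given. Its raw spot signal in Cy5 was 126, 171, 156.5 and 139 scanner units on arrays 1 to 4, against medians of 59, 67, 67 and 69 for the 153 negative control spots. In Cy3 it was 239, 205, 210 and 231, against medians of 183, 180, 183 and 198. The Cy5 spot stood well above background on each of the 4 arrays, and the Cy3 spot on none. Since orexin B RNA was in Cy5 on 2 arrays and in Cy3 on the other 2, MYD88 was detected in 2 treated and 2 untreated cultures, and detection followed the dye.

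The receptors for nucleic acids other than TLR3 were also at or below the limit of detection. TLR7, a receptor for single-stranded RNA, was well above background in Cy5 on array 1 only and in Cy3 on none. TLR9, the receptor for unmethylated CpG DNA, was well above background in Cy5 on arrays 1 and 4, that is in 1 treated and 1 untreated culture, and in Cy3 on none. TLR8, also a receptor for single-stranded RNA, was not well above background on any array in either channel. TLR8 signals ran from 68 to 142.5 in Cy5 and from 211 to 263 in Cy3. These 3 genes are given no ratio, and a level below background does not show that the gene was silent in the tissue.

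**Figure D4:**
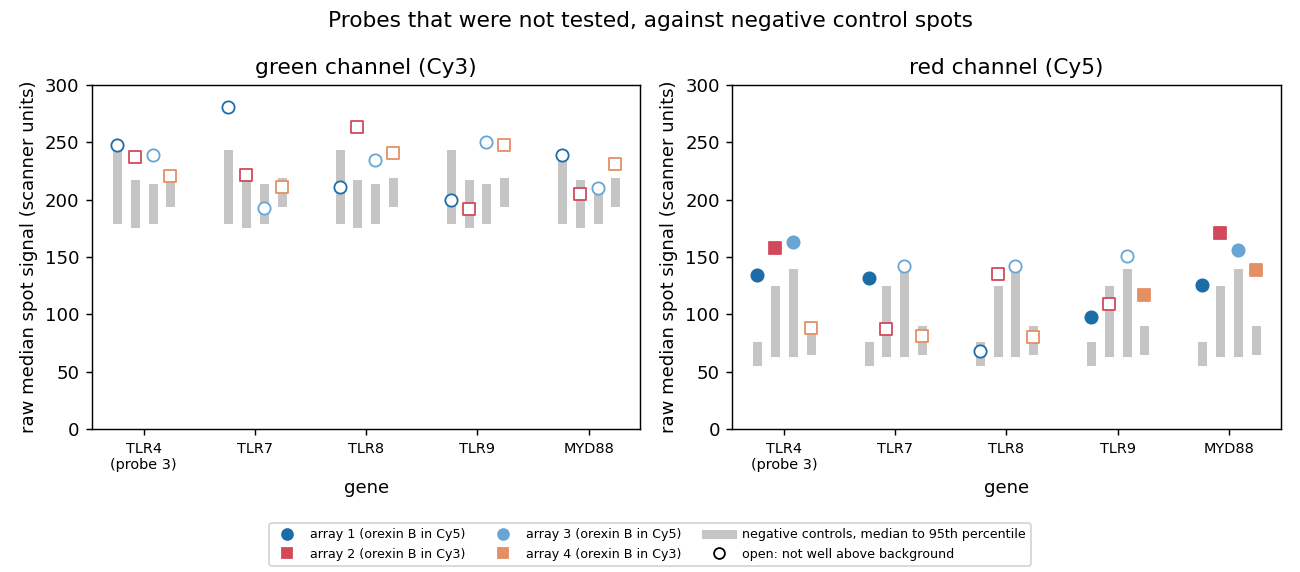
Raw median spot signal in scanner units (vertical axis) of the 5 member probes that were not tested, in Cy3 (left) and Cy5 (right), one symbol per array; filled symbols were well above background, and grey bars run from the median to the 95th percentile of the negative control spots of the same array and channel. All filled symbols are in Cy5, and MYD88 is filled on all 4 arrays there.

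The dyes differed in how far dim spots stood out. Negative control spots had median signals of 180 to 198 in Cy3 with a local background of 23.5 to 50.5, and of 59 to 69 in Cy5 with a local background of 30 to 36. Of all 43603 probes, 221 (0.507%) were well above background in Cy5 on all arrays and in Cy3 on none, like MYD88, and 0 had the opposite pattern. For the tested members, a dye term beside the treatment was not called (smallest adjusted p = 0.422, LY96 probe 1, limma). The dye term was called for no probe of the array (0 of 19879, 0%), so this does not show the members free of a dye effect. An unadjusted p under 0.05 for the dye term was found for 2494 probes (12.5%) and for 0 of the 12 member probes. With that term the treatment was not called either (smallest adjusted p = 0.444, TLR1, limma). With the term, 0 of 19879 probes (0%) were called for treatment and 2382 (12%) had an unadjusted p under 0.05. No tested member had arrays 1 and 3 of one sign and arrays 2 and 4 of the other, a pattern seen in 18.3% of probes with 4 values.

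Other genes of the pathway were taken from lists of co-receptors and chaperones, adaptors and kinases, transcription factors, inhibitors and receptors of the interleukin 1 family. Each gene of these and the later lists is given by its brightest tested probe. Of 66 genes listed, 30 had a RefSeq probe and 21 were tested; 0 were called and 2 had an unadjusted p under 0.05, both above 0. Over all named genes, 6.27% had such a p above 0 and 4.24% below 0. The mean was above 0 for 14 of the 21, against 53.7% of named genes, and the median was 0.08. All 4 arrays were above 0 for 3 genes and below 0 for 1, against 8.53% and 7.1% of named genes.

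Among co-receptors and chaperones 4 genes were tested. CD14, which passes lipopolysaccharide to TLR4 and LY96, had ratios of 0.26, -0.55, 0.19 and 0.43 and a mean of 0.08 ± 0.18 (adjusted p = 0.928, limma). Without replicate 4 it was -0.03. HSP90B1, the endoplasmic reticulum chaperone that folds most Toll-like receptors, had 0.18, 1.74, 0.22 and 0.73, a mean of 0.72 ± 0.26 (unadjusted p = 0.0272, adjusted p = 0.600, limma). It was above 0 on all 4 arrays, and its mean was 0.38 without replicate 2. HMGB1, a nuclear protein that can act as a danger signal when released, had the lowest mean of this list at 0.07 ± 0.16. The receptor TLR10 and the co-receptor genes LBP, CD36, CD180 and LY86, also in this list, had a probe and were not bright enough to test.

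Among adaptors and kinases 8 of 9 genes with a probe were tested, 4 above and 4 below 0. TBK1, the kinase that activates IRF3 downstream of TLR3 and TLR4, had the highest mean, 0.33 ± 0.24, with ratios of -0.14, 1.01, -0.30 and 0.73. CHUK, a kinase of the complex that releases NF-kB, had the lowest, -0.29 ± 0.19, with -0.97 on array 4. The ubiquitin ligase TRAF6 had 0.25 ± 0.14 and the MYD88-bound kinase IRAK4 had 0.01 ± 0.16. None was called (adjusted p from 0.729 to 0.991 for these 4, limma). TBK1 was above 0 on arrays 2 and 4 and below 0 on arrays 1 and 3. Its mean was 0.10 without replicate 2, 0.19 without replicate 4 and 0.53 without replicate 3. CHUK was -0.07 without replicate 4, -0.57 without background correction and -0.66 with the processed signals (adjusted p = 0.678 for the last, limma). TRAF6 was 0.16 without replicate 3 and 0.39 without replicate 1.

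Transcription factors were tested for 6 genes. IRF7, which induces type I interferon after endosomal receptors signal, had 0.20, 0.41, 0.06 and 0.56, above 0 on all arrays, with a mean of 0.31 ± 0.13 (unadjusted p = 0.0469, adjusted p = 0.642, limma). The NF-kB subunits NFKB1 and RELA had 0.13 ± 0.12 and -0.08 ± 0.15, and JUN, a subunit of AP-1, had -0.24 ± 0.17 (adjusted p from 0.766 to 0.913, limma). JUN was -0.05 without replicate 1 and -0.39 without replicate 4, and NFKB1 was 0.07 without replicate 4. Inhibitors of the pathway were tested for 3 genes and had means above 0. NFKBIA, which holds NF-kB in the cytoplasm, had -0.43, 1.10, 0.14 and 0.62, a mean of 0.36 ± 0.24. TNFAIP3 (A20), an enzyme that edits ubiquitin chains, had -0.50, 0.92, 0.51 and 0.83, a mean of 0.44 ± 0.24. Both are also induced by NF-kB, and both were below 0 on array 1 and above 0 on the others. TNIP1, a partner of TNFAIP3, had 0.27 ± 0.14. None of the 3 was called (adjusted p from 0.692 to 0.753, limma). Without replicate 2, NFKBIA was 0.11 and TNFAIP3 was 0.28, and without replicate 1 they were 0.62 and 0.75. TNIP1 was 0.15 without replicate 4.

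Of 26 genes that Toll-like receptors are known to induce through NF-kB or interferon, 23 were tested and 21 had a mean above 0, with a median of 0.43 beside 0.02 for all named genes; 6 were above 0 on all 4 arrays and 7 had an unadjusted p under 0.05, all above 0. The background for genes was 53.7%, 8.53% and 6.27%, and 0 were called. This list, like the others, was chosen with earlier results of these data known, and its difference from all named genes was not tested. The highest was CXCL8, the neutrophil chemoattractant, with ratios of 0.42, 1.78, 0.47 and 3.97, a mean of 1.66 ± 0.55 (adjusted p = 0.596, limma), and 0.89 without replicate 4. The lowest was VCAM1, an adhesion molecule, at -0.30 ± 0.27, and its mean was -0.64 without replicate 2, -0.15 without replicate 3 and -0.09 without replicate 4. The list medians on arrays 1 to 4 were 0.11, 0.63, 0.12 and 0.86, against -0.14, -0.09, -0.12 and 0.15 for the 6 receptor and LY96 genes. Arrays 2 and 4, where the target genes were highest, were those with orexin B in Cy3, and the part of the dye in this was not tested for the list. Without replicate 4 the median of the target genes was 0.21. As Cy5 over Cy3 on every array, which gives the dye term and not orexin B over untreated, it was -0.42.

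Of 14 macrophage and monocyte markers listed, 10 were tested, all with a mean above 0, where 53.7% of named genes had one. Their median was 0.58, and on arrays 1 to 4 it was 0.61, 0.11, 0.85 and 0.65. With the mean of all tested probes of each gene, in place of its brightest one, the median was 0.49. An unadjusted p under 0.05 (limma) was found for 8, all above 0, where 6.27% of named genes had one above 0. These 8 included the C1q chains C1QA, C1QB and C1QC, and 0 markers were called. CD14, 1 of the 10 markers, is also in the list of co-receptors and chaperones, and 1 marker had no value on array 1. The summed intensity of the 10 markers ran from 8160 to 18505 over the treated channels and from 5013 to 11201 over the untreated ones. The lysozyme gene LYZ was on the array and not bright enough to test. The 2 tested neutrophil markers had array medians of 0.04, 1.50, -1.06 and 0.78, the 3 T and NK cell markers a median of 0.18, and none of the 3 B cell markers on the array was bright enough to test. Array 3, which had the highest macrophage median, had member ratios from -0.25 to 0.39. All 9 tested smooth muscle markers had a mean below 0, with a median of -0.49, where 53.7% of named genes had a mean above 0. On arrays 2 and 4, which had orexin B in Cy3 and the highest target genes, the median was -1.13 and -1.21. On arrays 1 and 3, with orexin B in Cy5, it was 0.0035 and 0.16. All 4 fibroblast markers also had a mean below 0, with a median of -0.41, and 0 markers of either list were called. On arrays 1 to 4 the fibroblast median was -0.016, -0.72, -0.0016 and -0.77. Whether the dye had a part in either list was not tested. The summed intensity of the smooth muscle markers ran from 344471 to 894256 over the treated channels and from 640510 to 1105472 over the untreated ones. The median was 0.31 for 3 endothelial markers, 0.17 for 2 dendritic cell markers, 0.12 for 4 trophoblast markers and -0.33 for 2 epithelial markers. On arrays 1 to 4 the epithelial median was 0.33, -0.46, -2.09 and 0.89. KRT8 was counted as a marker of both trophoblast and epithelial cells. The part of any of these cells in the ratios of the receptors or of the target genes was not tested.

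**Figure D5:**
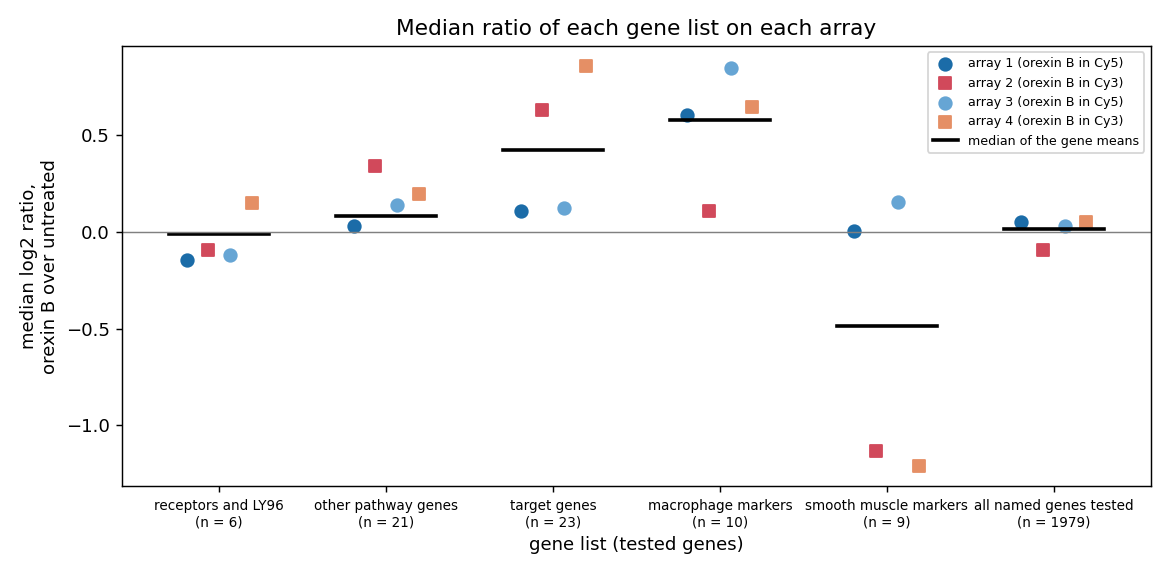
Median log2 ratio of orexin B over untreated (vertical axis) on each array for 6 gene lists, 1 probe a gene, with the number of tested genes under each name; the black line is the median of the gene means. The receptors and LY96 lie between -0.14 and 0.15 on all arrays. Target genes and macrophage markers lie above 0 on all 4, and smooth muscle markers are low on arrays 2 and 4 (orexin B in Cy3). The lists were chosen with earlier results of these data known.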

How the data were processed

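Agilent Feature Extraction 10.7.3.1 wrote the scanner files, per the file headers. Each spot has the median intensity of its pixels and of its surround, per the file headers, and marks of 0 or 1 for other properties. The files also hold processed intensity values and a log10 ratio, per the file headers. The deposited series table holds log2 ratios, which matched the processed signals within 0.01 for at least 99.98% of probes on each array once turned to orexin B over untreated. The dye fields of the labels set that direction; the protocol text names 1 orientation for all arrays. Local background was corrected with normexp (offset 50), loess within each array gave control spots weight 0, and 31 to 138 marked spots per array were left out (R 4.3.3, limma 3.58.1). A tested probe was well above background in the treated culture on all 4 arrays, or in the untreated culture on all 4. It also had an unmarked spot on at least 3 arrays. An intercept was fitted with lmFit and eBayes. Channel levels came from loess followed by quantile normalization of array means. No member spot was saturated.

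RefSeq accessions of 6700 probes matched the Sscrofa11.1 gene table; 36903 did not. Members and lists were chosen with earlier results of these data known. Named pathway genes were 14 fixed names, where tested, and the highest and lowest of each list; like profiles were sought for the 2 members of widest array range. P-values rest on the spread between 4 arrays (3 residual degrees of freedom). The variance of each probe was drawn toward that of all tested probes (4.1 prior degrees of freedom). An exact sign-flip test over the 4 arrays could not go below 0.125. In simulated ratios of orexin B against untreated (19708 probes, 200 of them changed), log2 changes of 0.5, 1 and 2 were set. They were called at an adjusted p under 0.05 (limma) for 1.49%, 65.7% and 97.0% of the changed probes. The simulated noise was normal and independent between probes and arrays, without a dye effect, so these shares can differ from those of the data. Figures used Python 3.11.15 and matplotlib 3.10.9.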

Additional observations from a re-analysis of the deposited data

Results flagged for a closer look

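A single array far from the other 3 was looked for in 44 sets of values and found in 2, where chance gives 2.2. Probe 2 of LY96 had a log2 ratio of 0.87 on array 4 against -0.28 to -0.16 on the other arrays. The median of the co-receptor and chaperone list was 0.55 on array 2 and between 0.19 and 0.23 on the others.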

How the results depend on the processing

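No probe of the array was called under any of the 14 other settings run over all probes. The count at an unadjusted p under 0.05 was 1534 as reported, 177 with median centring, 494 with no replicate block (channels as separate samples), 2302 with no filter on brightness, 2382 with a dye term and 726 without replicate 4. Without turning the ratios by dye (Cy5 over Cy3 on every array), the medians were -0.078 for other pathway genes, -0.42 for target genes and 0.22 for macrophage markers. These are not values of orexin B over untreated. With 2 arrays in each dye orientation, the unturned mean of a probe with 4 values is its dye term. The signs of the following were turned there: TLR1 0.14, TLR2 0.14, TLR3 -0.16 and -0.20, TLR4 probe 1 -0.10, LY96 probes 2 and 4 -0.31 and -0.066, HSP90B1 -0.52, HMGB1 -0.21, IRAK4 -0.26, TRAF6 -0.078, TBK1 -0.55, CHUK 0.17, IRF7 -0.18, RELA 0.071, NFKB1 -0.12, NFKBIA -0.50, TNFAIP3 -0.43, TNIP1 -0.044 and CXCL8 -1.22. TLR4 probe 2 was 0.021 without background correction, 0.20 with the processed signals and with the series table, and 0.032 with background taken from negative control spots, a setting chosen after seeing the data. IRAK4 was -0.0046 with the processed signals and with the series table. With median centring LY96 probes 2 and 4 were -0.055 and -0.025 and HMGB1 was -0.0061. For the settings other than the unturned one, the cause of these sign changes was not tested.

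Leaving out 1 array moved the median of the members between -0.12 and 0.01, LY96 probes 1 to 4 between -0.44 and 0.10, -0.22 and 0.16, -0.34 and 0.12, and -0.16 and 0.20, TLR2 between -0.12 and 0.081, TLR3 probe 1 between -0.014 and 0.23, and TLR4 probes 1, 2 and 4 between -0.056 and 0.12, -0.084 and 0.029, and -0.049 and 0.21. CD14 lay between -0.029 and 0.29, HMGB1 between -0.075 and 0.21, IRAK4 between -0.15 and 0.12 and RELA between -0.17 and 0.051. TLR1 stayed between -0.30 and -0.17. Mean spot signals, a planned setting, were not used here. MYD88, TLR7, TLR8, TLR9 and 1 probe of TLR4 had too little signal over background for a ratio.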
